A study of Mus musculus with 6 samples.

Results

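The genes described here are 10 genes of metal binding and antioxidant defence: Mt1, Mt2, Hmox1, Nqo1, Gclc, Gclm, Sod1, Sod2, Cat and Txnrd1. They were followed in the degenerating retina of rd1/rd1 mice (written rd/rd in the sample titles), because oxidative stress is a proposed cause of the late death of cones. Every probe of the array whose single annotated gene symbol was one of these names was taken, which gave 14 of the 45281 probes. A probe was tested when it lay above the median of its array on at least 3 arrays, and 11 of the 14 did. All 10 genes kept at least 1 probe, and each entered the test through its brightest one, among 12046 tested genes in all.

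RNA was measured on single-colour Illumina bead arrays in central retina at 2 months and at 8 months of age, with 3 samples per age and no treatment. All 6 samples came from animals homozygous for rd1, a mutation of the rod phosphodiesterase beta subunit after which rods die first and cones later, so no retina without the mutation was compared. Between 3 and 6 punches of 1.5 mm diameter were pooled for each sample, and the sources used here do not say how many animals a pool held. The p-values therefore measure the spread between these pools.

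Metallothioneins are small proteins rich in cysteine that bind zinc and copper and scavenge radicals; the transcription factor MTF1 switches them on through metal response elements, and glucocorticoids and inflammation raise them too. In the retina, Müller glia, astrocytes and pigment epithelium are known sources of Mt1 and Mt2. The remaining genes are enzymes. Superoxide dismutases turn superoxide into hydrogen peroxide, catalase and the thioredoxin and glutathione systems remove the peroxide, and haem oxygenase degrades haem. Hmox1, Nqo1, Gclc, Gclm and Txnrd1 are classical targets of NRF2, a factor that is held by KEAP1 until oxidants release it and then binds antioxidant response elements.

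Mt2 and Mt1 are neighbouring genes on mouse chromosome 8, with Mt3 and Mt4 next in the row. The 250 bases before the RefSeq starts of Mt2 and Mt1 are shown, since these windows were searched for elements read by MTF1. Mt2 was read at chr8:94172368-94172617 and Mt1 at chr8:94178839-94179088, both on the + strand of GRCm38.p6, with capitals at each match to the metal response core, TGCACNC or TGCGCNC, on either strand.
Mt2: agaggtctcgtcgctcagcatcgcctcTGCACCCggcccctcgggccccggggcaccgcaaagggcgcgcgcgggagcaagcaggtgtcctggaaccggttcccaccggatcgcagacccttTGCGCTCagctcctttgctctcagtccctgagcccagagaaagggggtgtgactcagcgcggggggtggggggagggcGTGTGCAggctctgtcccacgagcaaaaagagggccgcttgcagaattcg
Mt1: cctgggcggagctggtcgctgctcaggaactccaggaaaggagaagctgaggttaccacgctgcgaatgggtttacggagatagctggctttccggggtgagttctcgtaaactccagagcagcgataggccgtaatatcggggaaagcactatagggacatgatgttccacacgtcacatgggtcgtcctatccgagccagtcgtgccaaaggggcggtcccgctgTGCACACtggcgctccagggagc
The window of Mt2 held 3 matches and that of Mt1 held 1, at positions −23 to −17 before the start. The core is short, and 21.4% of 32851 RefSeq promoter windows of this length held at least 1 match, while 1.26% held 3 or more. With any letter in place of that A or G (TGCNCNC) Mt2 had 5 matches and Mt1 still 1, and 44.4% of all windows had at least 1. The counts hold for these windows alone and are not counts over a whole promoter. Bases outside the windows, those after the RefSeq start included, were not searched. The 1 match of Mt1 therefore does not show that it is poor in such elements. Whether the retina starts these transcripts at the RefSeq positions was not tested.

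The antioxidant response core TGACNNNGC, searched on both strands, was rarer and stood in 10.2% of the same windows. Windows were found for 8 of the 10 genes, 10 windows in all since Txnrd1 has 3. The core occurred once each in the windows of Gclm, Sod1, Mt2 and the second window of Txnrd1, where the letters on the written strand were GCACCGTCA, GCGTGGTCA, TGACTCAGC and GCTTTGTCA. In Gclm it overlapped a match to the metal response core. These matches are letters in a sequence, and no binding was measured.

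No change between 2 and 8 months was called for any of the 10 genes. Over the whole array 0.224% of the tested genes passed (27 of 12046, limma, Benjamini-Hochberg adjusted p below 0.05), and of the 10 genes 0 passed in either direction, with 0 at an unadjusted p below 0.05, which 10.4% of all tested genes reached. By direction, 0.158% of all tested genes were called higher and 0.0664% lower. The changes of the 10 genes, 8 minus 2 months, ran from −0.078 to 0.13 on the log2 scale, 6 positive and 4 negative, with a median of 0.027 against 0.00048 over all tested genes. Without 8 month replicate 3 that median was 0.10. The size of the change, ignoring its sign, had a median of 0.044, against 0.056 over all tested genes. The 95% intervals of the 10 changes all lay within a fold of 1.5 either way, from 0.835-fold at the lowest bound to 1.29-fold at the highest. That holds for the fit without covariates. With the level of the red blood cell markers as a covariate the intervals of Mt1 and Cat reached beyond it, to upper bounds of 1.74-fold and 1.52-fold. The bounds are on the scale of the array. The scale is compressed near background, and 5 of the genes (Mt2, Hmox1, Nqo1, Gclc and Txnrd1) lay within 0.5 of the array median of 7.19, so a larger change in their RNA could have gone unseen.

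**Figure D1:**
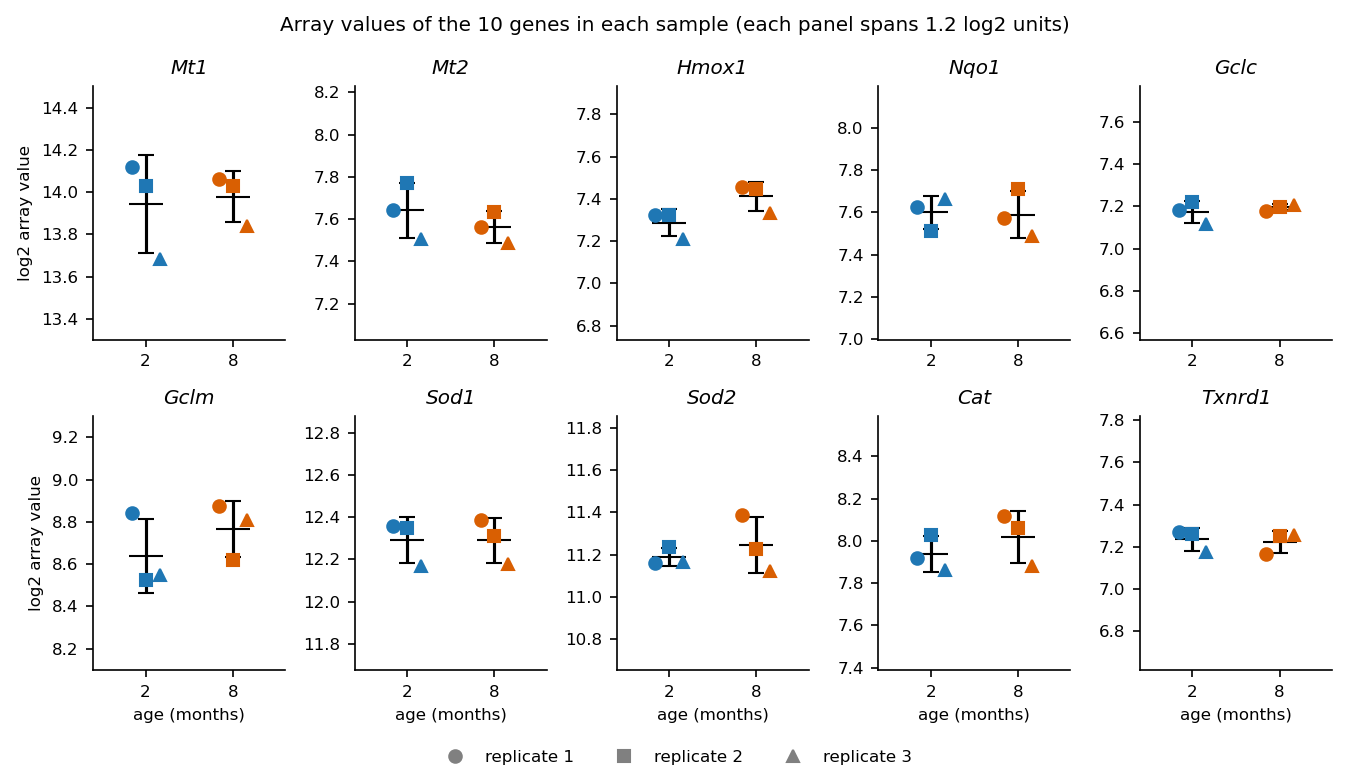
Log2 array values of the 10 genes in each of the 6 samples, with 2 month samples in blue and 8 month samples in orange; the marker shape gives the replicate number, and bars show mean ± SD of 3 samples. The ages overlap in every panel but that of Hmox1, and the triangle (replicate 3) is the lowest of its age for 7 of the 10 genes at each age.

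Mt1 was a bright probe, with values of 14.12, 14.03 and 13.68 in 2 month replicates 1 to 3 and of 14.06, 14.03 and 13.84 in 8 month replicates 1 to 3. All 8 month values lay inside the range of the 2 month values, and replicate 3 was the lowest at both ages. The mean went from 13.94 ± 0.23 to 13.98 ± 0.12 (SD, n = 3), a change of 0.033 (SE 0.12, limma adjusted p = 0.965). The highest value anywhere on the arrays was 14.5, so Mt1 was read near the upper end of the scale. Without 2 month replicate 3 its change was −0.098, without 8 month replicate 1 it was −0.0093, and without 2 month replicate 1 it was 0.12. Covariates gave larger positive values, 0.22 (SE 0.24) with the red blood cell level, 0.13 (SE 0.16) with the pigment epithelium level and 0.22 (SE 0.093, unadjusted p = 0.0550, limma adjusted p = 0.583) with Xist.

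Mt2 was read at 7.64, 7.77 and 7.51 at 2 months and at 7.57, 7.64 and 7.49 at 8 months. The ages overlapped and replicate 3 was again the lowest of each. Its change of −0.078 (SE 0.077, limma adjusted p = 0.823) was about the size of its standard error. Mt1 and Mt2 each have 1 probe on the array, so the agreement of probes could not be checked for them.

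Mt3 and Mt4, the other metallothioneins, and Mtf1, the factor that reads the metal response elements, were added after their values were seen. Mt3, the form made by neurons and some glia, was at 9.09, 9.14 and 9.41 at 2 months and at 9.09, 9.15 and 9.51 at 8 months. Here replicate 3 was the highest sample of each age, the opposite of Mt1 and Mt2. Its change was 0.036 (SE 0.13, limma adjusted p = 0.964). Mt4, a form of squamous epithelia, had means of 7.18 and 7.19, close to the array median, and Mtf1 had a change of 0.072 (SE 0.049, limma adjusted p = 0.705).

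Sod1, the copper and zinc superoxide dismutase of the cytosol, was read at 12.36, 12.35 and 12.17 at 2 months and at 12.39, 12.31 and 12.18 at 8 months. The values of both ages nearly coincide, with replicate 3 lowest in each. The change was −0.0013 with a 95% interval from −0.18 to 0.18 (limma adjusted p = 0.998), or 0.881-fold to 1.13-fold. The other probes of Sod1 lay near background, with changes of 0.044 and 0.035. Sod2, the manganese enzyme of mitochondria, was at 11.16, 11.24 and 11.17 at 2 months and at 11.39, 11.23 and 11.12 at 8 months. The 8 month samples spanned the whole range of the 2 month samples, and the change was 0.056 (SE 0.073, limma adjusted p = 0.881). Both probes lie far above background, away from the compressed end of the scale.

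Cat, the peroxisomal enzyme that breaks down hydrogen peroxide, was at 7.92, 8.03 and 7.86 at 2 months and at 8.12, 8.06 and 7.88 at 8 months. Replicates 1 and 2 at 8 months were above all 2 month samples while replicate 3 was not. The change was 0.082 (SE 0.077, limma adjusted p = 0.810), and the second probe of Cat stayed near background, at 7.15 at both ages. With the pigment epithelium level as a covariate the change was 0.22 (SE 0.073, limma unadjusted p = 0.0236, adjusted p = 0.754). With Xist it was 0.16 (SE 0.084, limma adjusted p = 0.660).

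Gclm and Gclc encode the modifier and the catalytic subunit of glutamate-cysteine ligase, which sets the rate of glutathione synthesis. Gclm was at 8.84, 8.53 and 8.55 at 2 months and at 8.87, 8.62 and 8.81 at 8 months. Its 8 month samples fell among the 2 month ones except for replicate 1, and the change of 0.13 had the highest upper bound of the 10 genes, 1.29-fold (95% interval −0.11 to 0.37, limma adjusted p = 0.764). The single probe of Gclc lay at the array median in all samples, from 7.12 to 7.22, and says little about its RNA.

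Hmox1, the inducible haem oxygenase, was at 7.32, 7.32 and 7.21 at 2 months and at 7.46, 7.45 and 7.33 at 8 months. It was the single gene of the 10 whose ages did not overlap, where 7.45% of all tested genes were higher without overlap and 7.59% lower. The gap between the ages was narrow, since 8 month replicate 3 at 7.33 stood just above 2 month replicates 1 and 2 at 7.32. The change was 0.13 (SE 0.058), with an unadjusted p of 0.0660 and a limma adjusted p of 0.532. It stayed positive in 6 fits that left out 1 sample and in 11 other settings, and was called in none. With Xist as a covariate it was 0.19 (SE 0.064, limma unadjusted p = 0.0240, adjusted p = 0.494). The pigment epithelium level gave 0.18 (SE 0.076, limma unadjusted p = 0.0497, adjusted p = 0.804), and the red blood cell level 0.20 (SE 0.12, limma adjusted p = 0.828).

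Nqo1, a quinone reductase, was at 7.62, 7.51 and 7.66 at 2 months and at 7.57, 7.71 and 7.49 at 8 months. The 8 month values spanned the range of the 2 month values, with a change of −0.011 (SE 0.073, limma adjusted p = 0.983), and its second probe stayed below the array median. Txnrd1, the cytosolic thioredoxin reductase, ranged from 7.16 to 7.27 over the 6 samples, close to the array median, with a change of −0.011 (SE 0.053, limma adjusted p = 0.974). Both lie where the scale is compressed.

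**Figure D2:**
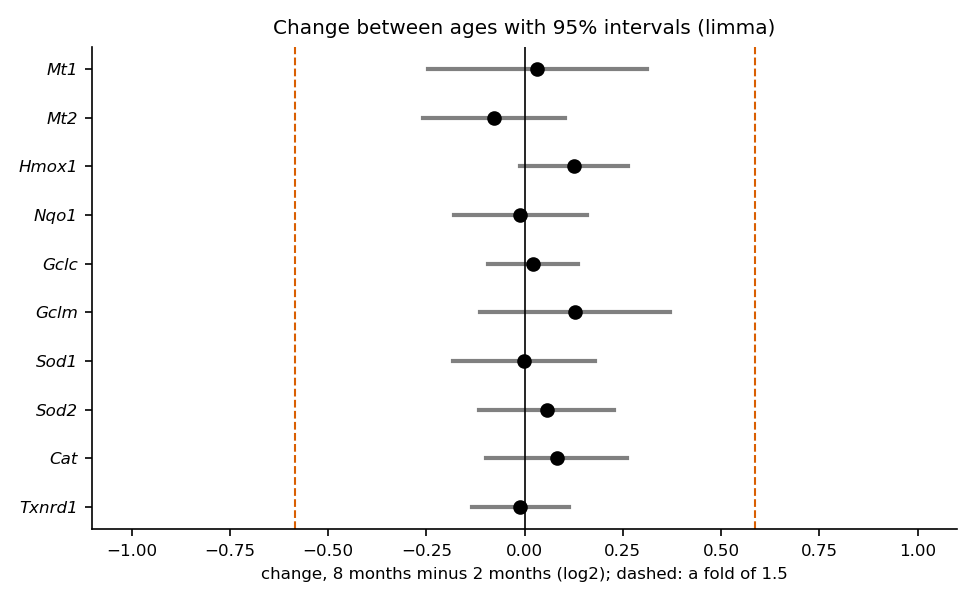
Change of each gene between ages (8 months minus 2 months, log2) with its 95% interval from limma; dashed lines mark a fold of 1.5 in either direction. In this fit without covariates every interval holds 0 and stays inside the dashed lines.

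Within each age 1 sample stood low for most of the genes. At 2 months replicate 3 was the lowest sample for 7 of the 10 genes (Mt1, Mt2, Hmox1, Gclc, Sod1, Cat and Txnrd1), while it was the lowest for 34.6% of all tested genes. At 8 months replicate 3 was also the lowest for 7 of the 10 (Mt1, Mt2, Hmox1, Nqo1, Sod1, Sod2 and Cat), against 32.2% of all tested genes. The median distance of the 10 genes from the mean of their age was −0.074 in the first and −0.090 in the second. Replicate numbers carry no order and no pairing that the labels explain.

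Levels of several other cell type markers also differed in these samples, in both directions. The 6 tested markers of astrocytes and reactive glia had a mean log2 level of 8.39 in 2 month replicate 3, where the other samples of that age had 9.05 and 9.09 and those at 8 months 8.84 to 8.91. The filament gene Gfap was at 9.82 in that sample and between 10.64 and 11.08 in the other 5. The 11 tested pigment epithelium markers had their lowest mean, 8.72, in 8 month replicate 3, against 9.28 to 10.06 in all other samples. The 9 tested cone markers were also lowest there, at 8.52, while the other 8 month samples had 9.11 and 9.13. At 2 months the cone markers were lowest in replicate 3, at 9.81 against 10.15 and 10.17. Rod (5 tested) and skeletal muscle markers (7 tested) were lowest of their age in both samples, at 8.32 and 7.77 and at 7.33 and 7.29. Lens (8 tested) and endothelium markers (9 tested) were instead highest of their age in 2 month replicate 3, at 8.10 and 8.52. Mean Müller glia marker levels (8 tested) differed little, from 11.44 to 11.54 at 2 months and from 11.41 to 11.52 at 8 months. Of these markers, Rlbp1 lay between 12.43 and 12.89. Glul was at 8.36, 8.36 and 8.33 at 2 months and lower in every 8 month sample, at 7.96, 8.27 and 8.23. Microglia markers (10 tested) ran from 7.80 in 2 month replicate 3 to 8.16 in replicate 2 of that age and from 7.94 to 8.07 at 8 months. The part of these cells in the values of the 10 genes was not tested, and in bulk tissue fewer cells of a type and less RNA per cell cannot be told apart.

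**Figure D3:**
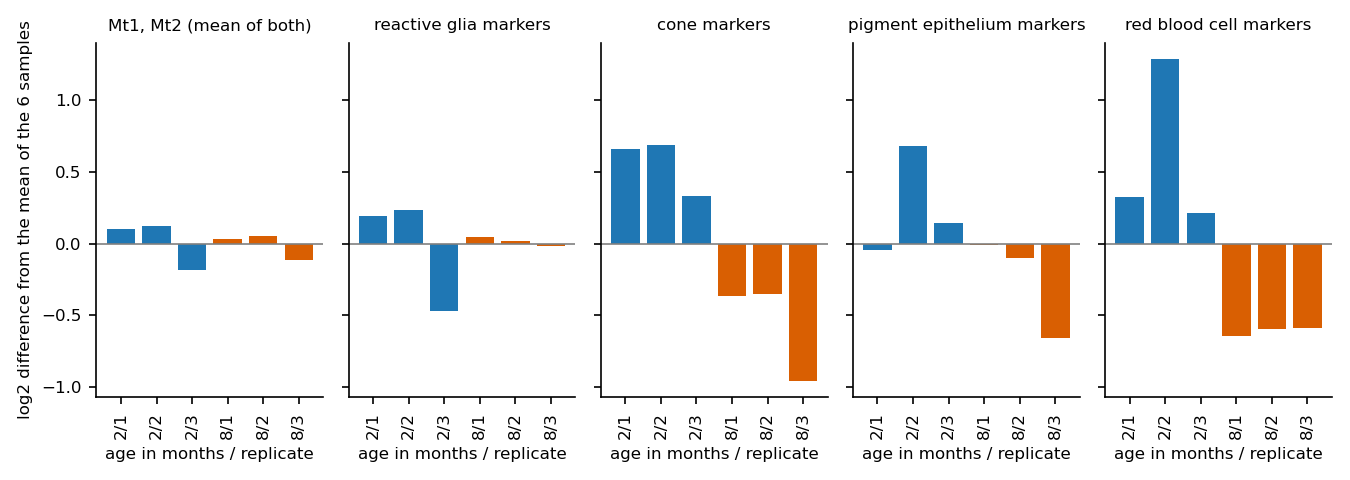
Mean log2 value of Mt1 and Mt2 and of 4 sets of cell type markers in each sample, as the difference from the mean of the 6 samples; the x axis gives age in months and replicate number, with 2 month samples in blue and 8 month samples in orange. The mean of Mt1 and Mt2 and the reactive glia markers are lowest in 2 month replicate 3, though Mt2 alone is lowest in 8 month replicate 3. Cone and pigment epithelium markers are lowest in 8 month replicate 3, and red blood cell markers are higher in all 2 month samples.

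Between the ages, the mean levels of cone, rod and red blood cell markers did not overlap. The cone markers had a mean log2 level of 9.81 to 10.17 at 2 months and of 8.52 to 9.13 at 8 months. Among the 9, 2 were called lower (limma), and the median change was −0.86. The 5 tested rod markers had mean levels of 8.32 to 8.67 and 7.77 to 8.04, with 0 called. Their mean level changed by −0.61 but their median change was −0.16, so the fall was uneven among them. The 4 tested red blood cell markers were at 9.81 to 10.89 at 2 months and 8.95 to 9.00 at 8 months, and the 7 tested skeletal muscle markers at 7.33 to 8.85 and 7.29 to 7.50. Sex-linked genes were uneven: Eif2s3y, on the Y chromosome, was at 7.79 and 8.27 in 2 month replicates 1 and 2 and at 7.10 to 7.18 elsewhere. Its probe did not pass the filter. Xist was at 9.40 and 8.73 in those samples and at 10.48 to 11.10 elsewhere. No 8 month sample resembled 2 month replicates 1 and 2 in these genes, so their levels and age are partly confounded. Red blood cells hold Cat and Sod1 protein, and with the level of their markers as a covariate the change of Cat was 0.24 (SE 0.15) and that of Sod1 0.11 (SE 0.16). The same covariate gave 0.17 for Mt2, −0.054 for Gclm and −0.17 for Nqo1. With Xist the changes of Mt2 and Sod1 were 0.038 and 0.094. None of these was called (limma). Every 2 month sample was higher in red blood cell markers than every 8 month sample, so blood and age are largely confounded here.

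Over the 6 samples Mt1 and Mt2 had a Pearson correlation of 0.656 with each other, and Mt1 one of 0.933 with Sod1, as a description over samples that share their preparation. The genes most like Mt1 by Pearson correlation over the 6 samples, among all tested genes with no clone name, were Gucy2g, a guanylyl cyclase receptor (0.992), Slc45a1, a sugar transporter (0.990), and Gmfg, a glia maturation factor (0.978). Gucy2g lay at the array median and the others just above it. The genes most like Mt2 were Hrc, a calcium-binding protein of muscle (0.987), Pcolce, an enhancer of collagen processing (0.983), and Slc13a3, a dicarboxylate transporter (0.982). The profile of Pcolce was the widest of these, with 9.23 in 2 month replicate 2 and 8.13 in 2 month replicate 3. All these genes were picked for the highest correlations among the tested genes over only 6 samples, so high values follow from the picking.

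The rest of the antioxidant network was followed with 9 lists of 123 genes, of which 97 were tested. Of these 1 was called higher and 0 lower (limma), where 0.158% and 0.0664% of all tested genes were. An unadjusted p below 0.05 (limma) was reached by 13 of the 97 and by 10.4% of all tested genes. The ages did not overlap for 16 of the 97, or 16.5%, against 15% of all tested genes. The median change of the 97 was 0.0073. None of the lists of zinc handling, NRF2 control, NRF2 targets, glutathione, thioredoxin and peroxiredoxin, superoxide or haem and iron had a called member, and the called gene was Lcn2, a lipocalin of reactive glia on the acute phase list.

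The zinc list (11 tested, 7 positive, median change 0.018) was led by Slc30a3, the transporter that loads zinc into synaptic vesicles. It was at 8.19, 8.33 and 8.27 at 2 months and at 8.81, 8.70 and 9.04 at 8 months, so that the ages lay well apart. The change of 0.59 (SE 0.090) had a limma adjusted p of 0.0777, and it passed with a stricter filter on dim probes (adjusted p = 0.0398) and with a trended, robust variance prior (adjusted p = 0.0033). It did not pass with no filter (adjusted p = 0.133) or with the red blood cell, pigment epithelium or Xist level as a covariate (adjusted p = 0.544, 0.563 and 0.313). The exporter Slc30a10 had a change of −0.11 and the importer Slc39a4 one of −0.12, neither called.

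The NRF2 control list (7 tested, 5 positive, median 0.068) had no called member. Keap1, which holds NRF2 in the cytoplasm, was between 9.41 and 9.42 in the 2 month samples and at 9.61, 9.59 and 9.52 at 8 months. Its change of 0.16 (SE 0.047, limma adjusted p = 0.279) was not shared by all 4 of its probes, which ran from −0.10 to 0.16. Nfe2l2, the gene of NRF2 itself, had a change of 0.068, and Bach1, a repressor at the same elements, one of −0.084.

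Among NRF2 targets (11 tested, 5 positive, 6 negative, median −0.037) and in the thioredoxin list (14 tested, 9 positive, median 0.045) the smallest p belonged to Srxn1, sulfiredoxin, which repairs overoxidised peroxiredoxins. It was at 10.03, 9.72 and 9.96 at 2 months and at 10.44, 10.29 and 10.25 at 8 months. All 8 month samples were the higher, and its 3 probes had changes from 0.38 to 0.44, but the change of 0.42 (SE 0.093) was not called (limma adjusted p = 0.168). With the red blood cell level as a covariate it was 0.090 (SE 0.14). Of the other targets, Gsta4, which conjugates products of lipid peroxidation, had a change of −0.28 (SE 0.19) and Tkt, of the pentose phosphate pathway, one of 0.20 (SE 0.14). The 3 kept probes of Tkt ran from −0.079 to 0.20. Prdx4, the peroxiredoxin of the endoplasmic reticulum, had a change of −0.39 (SE 0.11), and Txnip, an inhibitor of thioredoxin, one of −0.47 (SE 0.16), with 0 of the 14 called. The red blood cell covariate turned the direction of Gsta4 (0.50), Tkt (−0.14) and Txnip (0.22), and the pigment epithelium covariate that of Gsta4 (0.12).

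In the glutathione list (18 tested, 5 positive, 13 negative, median −0.045) Chac1, which degrades glutathione, had a change of −0.67 (SE 0.11, limma adjusted p = 0.102), and passed with the stricter filter and with the trended prior (adjusted p = 0.0483 and 0.0043), but not with no filter (adjusted p = 0.164) or with the red blood cell, pigment epithelium or Xist covariate (adjusted p = 0.643, 0.449 and 0.362). Its 2 month samples were at 10.13, 9.85 and 9.75 and its 8 month samples at 9.33, 9.06 and 9.32. Gpx8, a peroxidase of the endoplasmic reticulum, had a change of −0.21 (SE 0.066) and Gstt1, a glutathione transferase, one of 0.18 (SE 0.067). In the superoxide list (6 tested, median −0.046) Cyba, a subunit of the NADPH oxidase, had a change of −0.11 (SE 0.045), Ccs, the copper chaperone of Sod1, one of −0.12 (SE 0.076), and Sod3, the extracellular dismutase, one of −0.11 (SE 0.068). None of these was called, and Ccs and Sod3 turned to 0.17 and 0.14 with the red blood cell covariate.

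In the haem and iron list (13 tested, 9 positive, median 0.029) Tfrc, the transferrin receptor, was at 10.63, 10.81 and 10.78 at 2 months and at 10.32, 10.43 and 10.10 at 8 months. The ages did not overlap, and the change of −0.46 (SE 0.093, limma adjusted p = 0.142) passed with the trended prior alone (adjusted p = 0.0390). Heph, a ferroxidase, had a change of −0.14 (SE 0.068), but its 3 kept probes ran from −0.14 to 0.064. Blvrb, a biliverdin reductase also abundant in red blood cells, had one of 0.14 (SE 0.085). With the red blood cell covariate Heph and Blvrb were 0.080 and 0.39, and with that of pigment epithelium Tfrc was −0.30. Gsta4, Txnip, Ccs, Sod3, Heph and Sgk1 were each highest in 2 month replicate 2, the sample with the highest mean level of red blood cell (10.89), pigment epithelium (10.06) and skeletal muscle (8.85) markers, whose part in these values was not tested.

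Glucocorticoids and inflammatory signals also control Mt1 and Mt2, so genes of both were followed. The glucocorticoid list (10 tested, 4 positive, 6 negative, median −0.013) had no called member: Sgk1, a kinase, had a change of −0.80 (SE 0.31, limma adjusted p = 0.428), Per1, a clock gene, one of 0.12 (SE 0.082) and Pdk4, a kinase of pyruvate dehydrogenase, one of −0.044 (SE 0.048). With the red blood cell covariate Sgk1 was 0.23 (SE 0.48) and Pdk4 0.050, and with the pigment epithelium covariate Sgk1 was −0.12 (SE 0.17). In the acute phase list (9 tested, 4 positive, 5 negative, median −0.013) Lcn2 rose by 0.83 (SE 0.093, limma adjusted p = 0.0373), from 7.28, 7.41 and 7.16 to 8.15, 8.24 and 7.96, a call that was lost when replicate 1 of either age or replicate 2 of the 8 month samples was left out (adjusted p = 0.142, 0.162 and 0.0848). It was also lost in 5 of 11 other settings: no filter (adjusted p = 0.0698), every kept probe as a feature (0.0537), and the red blood cell (0.286), pigment epithelium (0.0703) and Xist (0.0657) covariates. Timp1, a protease inhibitor, had a change of 0.25 (SE 0.13) and Stat3, the factor downstream of interleukin 6, one of 0.27 (SE 0.18), which was 0.58 with the red blood cell covariate, 0.56 with Xist and 0.048 without 2 month replicate 3. With Xist Timp1 was 0.40. Stat3 was lowest in 2 month replicate 3, at 9.22 against 9.79 to 9.98 in the other 5 samples, as Gfap and Mt1 were.

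**Figure D4:**
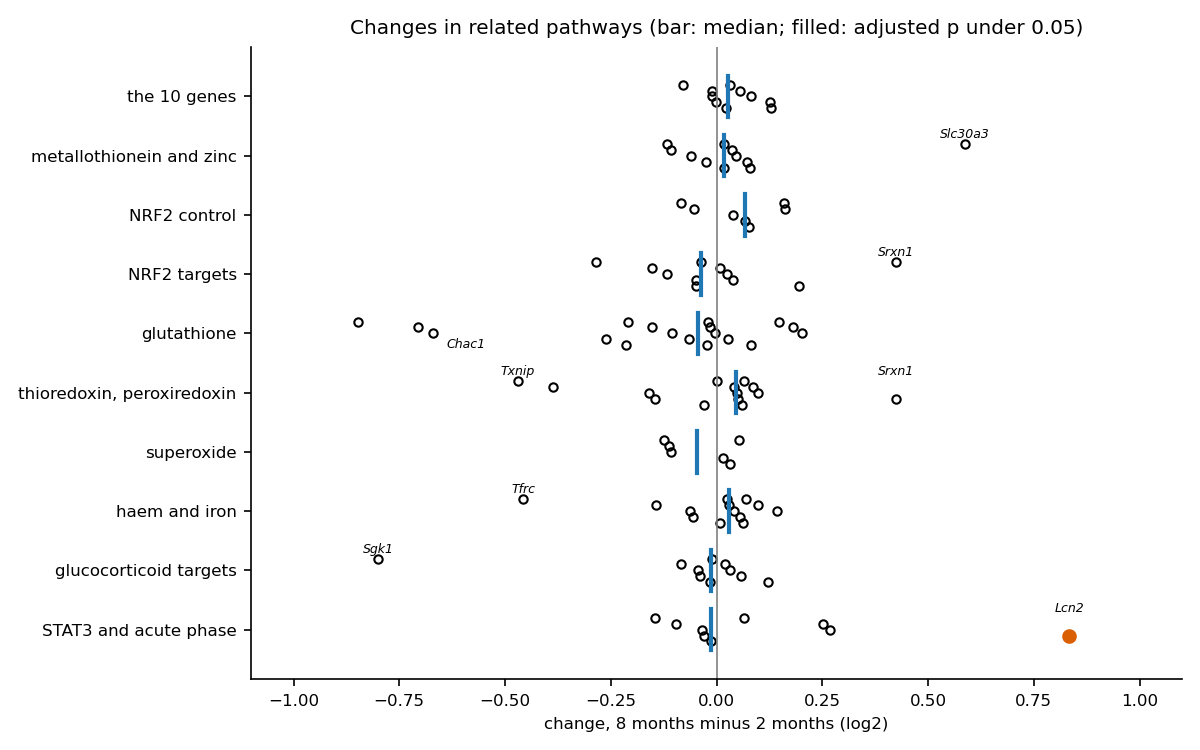
Change between ages (8 months minus 2 months, log2) of each tested gene in the set of 10 and in 9 related lists; the bar is the median of a list, the filled point is a gene with a limma adjusted p below 0.05, and named genes with a change beyond 0.4 are labelled. All medians lie close to 0, and Lcn2 is the filled point.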

How the data were processed

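The authors deposited 1 value per probe and sample for 6 Illumina arrays, on a log2 scale read from the range of 6.98 to 14.5. Ranked within each array, values of the 6 arrays differ by at most 0.00307 at any rank, as after a quantile-type normalization; the software and correction steps behind them are not stated. Per the labels' protocols, RNA was column-purified with a DNase step and biotinylated cRNA was made. Groups and replicate numbers come from the sample titles. The sample descriptions number the 2 month samples 1, 1 and 2 in place of 1, 2 and 3, each with a serial number of its own, and were not used.

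Probes were named through GEO's array annotation. Those above the 50th percentile of their array on at least 3 arrays were kept (22458 of 45281), and each gene was its brightest kept probe. Changes, 8 minus 2 months, were fitted with limma 3.58.1 in R 4.3.3 (lmFit, eBayes, no covariate) and adjusted over 12046 genes at 0.05. The number of arrays limits the precision. The fit was tested on simulated data. Sequences are from RefSeq tables (GRCm38.p6). The 10 genes, the lists, and the alternatives were chosen with earlier results of these data known. Genes named beside the 10 are the 3 of each list with the smallest p, the 3 most like Mt1 and Mt2, fixed marker genes, and Mt3, Mt4 and Mtf1. Same-numbered samples of both ages had correlations of deviations of 0.0239, 0.139 and 0.160. Those of differently numbered samples were lower, from −0.154 to 0.00198. The deviations within an age sum to 0 for each gene, so this contrast is partly set by the calculation. The labels explain no pairing, so the numbers were not used as pairs in the main fit. With the numbers as a block the SE of Mt1 went from 0.12 to 0.063 and that of Gclm from 0.10 to 0.064. That of Nqo1 went from 0.073 to 0.082, and none of the 10 genes was called (limma).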

Additional observations from a re-analysis of the deposited data

How the results depend on the processing

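Over 18 alternative settings, 6 of which left out 1 sample, none of the 10 genes was called by limma in either direction; the lowest adjusted p was 0.359 and the lowest unadjusted p 0.0183, both for Hmox1. Of 174 changes of the 10 genes under these settings, 151 kept their direction and 23 reversed, 13 of them with a sample left out. The cause of these reversals was not tested, and signal over background limits what can be read for the dim genes.

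Counts over the array moved more. No filter gave 5 genes higher and 2 lower, and 0 higher on the related lists. The stricter filter gave 21 lower in all and 1 lower on those lists (Chac1), with a median of −0.12 for the superoxide list. Every kept probe as a feature gave 8 higher and 3 lower, with 0 higher on the lists. The trended, robust prior gave 52 higher and 52 lower, with 2 higher and 2 lower on the lists. Taking the replicate number as a block (replicate block) gave 18 lower and changed no call among the 10 genes or the lists. With the mean of kept probes Sod1 changed by 0.021 and Mtf1 by −0.0031.

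With the red blood cell level as a covariate 0 genes were higher and 0 lower (limma; 0 higher on the lists). The median of the 10 genes was then 0.12, that of NRF2 targets 0.15, of the superoxide list 0.13, of glucocorticoid targets 0.092 and of the acute phase list 0.25. Values that reversed were 0.17 for Mt2, −0.054 for Gclm, 0.11 for Sod1, 0.048 for Txnrd1, −0.11 for Mt3, 0.50 for Gsta4, −0.14 for Tkt, 0.22 for Txnip, 0.17 for Ccs, 0.14 for Sod3, 0.080 for Heph, 0.23 for Sgk1 and 0.050 for Pdk4. With the pigment epithelium level 2 genes were higher and 0 lower, with 0 higher on the lists, medians of 0.079 (NRF2 targets) and 0.0195 (superoxide), and values of 0.030 for Mt2, 0.087 for Sod1, 0.12 for Gsta4 and −0.13 for Mt3. With Xist 2 were higher and 0 lower, with 0 higher on the lists, medians of 0.048 (zinc), 0.040 (NRF2 targets), 0.0018 (thioredoxin) and 0.29 (acute phase), and values of 0.038 for Mt2, 0.094 for Sod1, 0.026 for Txnrd1 and −0.13 for Mt3.

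Leaving out 1 sample gave 2 to 14 genes higher and 0 to 20 lower, and on the lists 0 to 1 higher and 0 to 1 lower, the latter Serpina3n without 2 month replicate 3. The median of the 10 genes ran from 0.0061 to 0.10, the latter without 8 month replicate 3. Changes ran from −0.098 to 0.12 for Mt1, −0.071 to 0.041 for Nqo1, −0.064 to 0.055 for Sod1, −0.015 to 0.12 for Sod2, −0.041 to 0.018 for Txnrd1, −0.095 to 0.13 for Mt3 and, where they passed the filter, −0.0070 to 0.029 for Gclc and −0.010 to 0.024 for Mt4. List medians ran from −0.010 to 0.061 for zinc, −0.021 to 0.086 for NRF2 control, −0.027 to 0.043 for NRF2 targets, 0.012 to 0.035 for thioredoxin and −0.12 to −0.040 for superoxide.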
